A study of Homo sapiens with 6 samples.

Results

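Histone-modifying enzymes and Polycomb genes were examined in HT-29 cells after treatment with a DNA demethylating drug. The list held 38 genes and was defined by gene names with no threshold on a measured value, although it was drawn up with earlier results of these data known. It comprised the histone deacetylases, the subunits of both Polycomb repressive complexes, histone demethylases, H3K4 and H3K9 methyltransferases and histone acetyltransferases. Of these, 35 were measured among 19775 genes, each by a single probe set, namely the one with the highest mean signal over the 6 arrays. BMI1 was represented only by 1 probe set that carries several gene symbols, and RNF2 and CBX8 are not analysed here, so that 3 of the 6 listed PRC1 genes have no value.

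HT-29 is an established human cell line from a colorectal adenocarcinoma. Expression was measured on 6 HGU133 Plus 2.0 arrays, of which 3 held RNA of cells treated with 10 µM 5-aza-2′-deoxycytidine (5-Aza) for 72 hours in serum-free medium and 3 held RNA of control cells that received the solvent. Both groups are the same cell line. Whether each array stands for its own culture is not stated, and the p-values below therefore measure the spread between arrays alone.

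DNA is packed around histones, and enzymes add or remove acetyl and methyl groups on the histone tails. Acetylation by EP300, CREBBP and the KAT2 enzymes goes with open, transcribed chromatin, and the histone deacetylases remove it. Polycomb repressive complex 2 (PRC2) methylates lysine 27 of histone H3, and Polycomb repressive complex 1 (PRC1) binds this mark through its CBX subunits and ubiquitinates histone H2A, which keeps developmental genes silent. Methylation of H3 lysine 9 by the SUV39H, SETDB1 and EHMT enzymes marks silent chromatin and is tied to DNA methylation, the modification that 5-Aza removes by trapping DNA methyltransferases. The comparison asks whether the genes that encode this machinery themselves differed in expression after demethylation.

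All 35 measured genes were detected, and 2 of them passed the test between the groups. Every one of them lay above a signal of 42 on every array, which was the highest signal of TrpnX, a bacterial control sequence absent from human cells, and their group means ran from 70.6 to 11176.6. The log2 fold changes (5-Aza minus control, on the log2(signal + 1) scale) ran from −0.55 for HDAC11 to 1.22 for HDAC9, with a median of −0.06, and 33 of the 35 were smaller than 0.5 in size. HDAC9 was higher and HDAC11 lower at an unadjusted p under 0.025 (limma). The study used this p threshold in this cell line for higher genes only, together with a ranking by fold change that is not applied here. The 1 higher gene makes 2.86% of the measured members, beside 3.01% of all genes called higher and 2.97% of all probe sets. The 1 lower gene makes the same share, beside 0.915% of all genes and 1.05% of all probe sets. Among the 11638 genes that lay above the TrpnX signal on every array, as these members did, 1.72% were called higher and 0.464% lower.

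No member passed an adjusted p under 0.05 by limma with Benjamini-Hochberg adjustment over 54613 probe sets (smallest adjusted p = 0.604), and 0 of these probe sets did. With 0.05 as the unadjusted threshold, 1 member was higher and 2 were lower, the third being CBX2, beside 5.33% of all genes higher and 1.89% lower. The 95% interval of the fold change lay within 2-fold in both directions for 34 of the 35 members, all but HDAC9, compared with 103 partner genes of which 99 did so, and with 87.8% of the genes above the TrpnX signal on every array. Leaving out 1 array widened the intervals, and 26 to 32 members then lay within 2-fold.

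**Figure D1:**
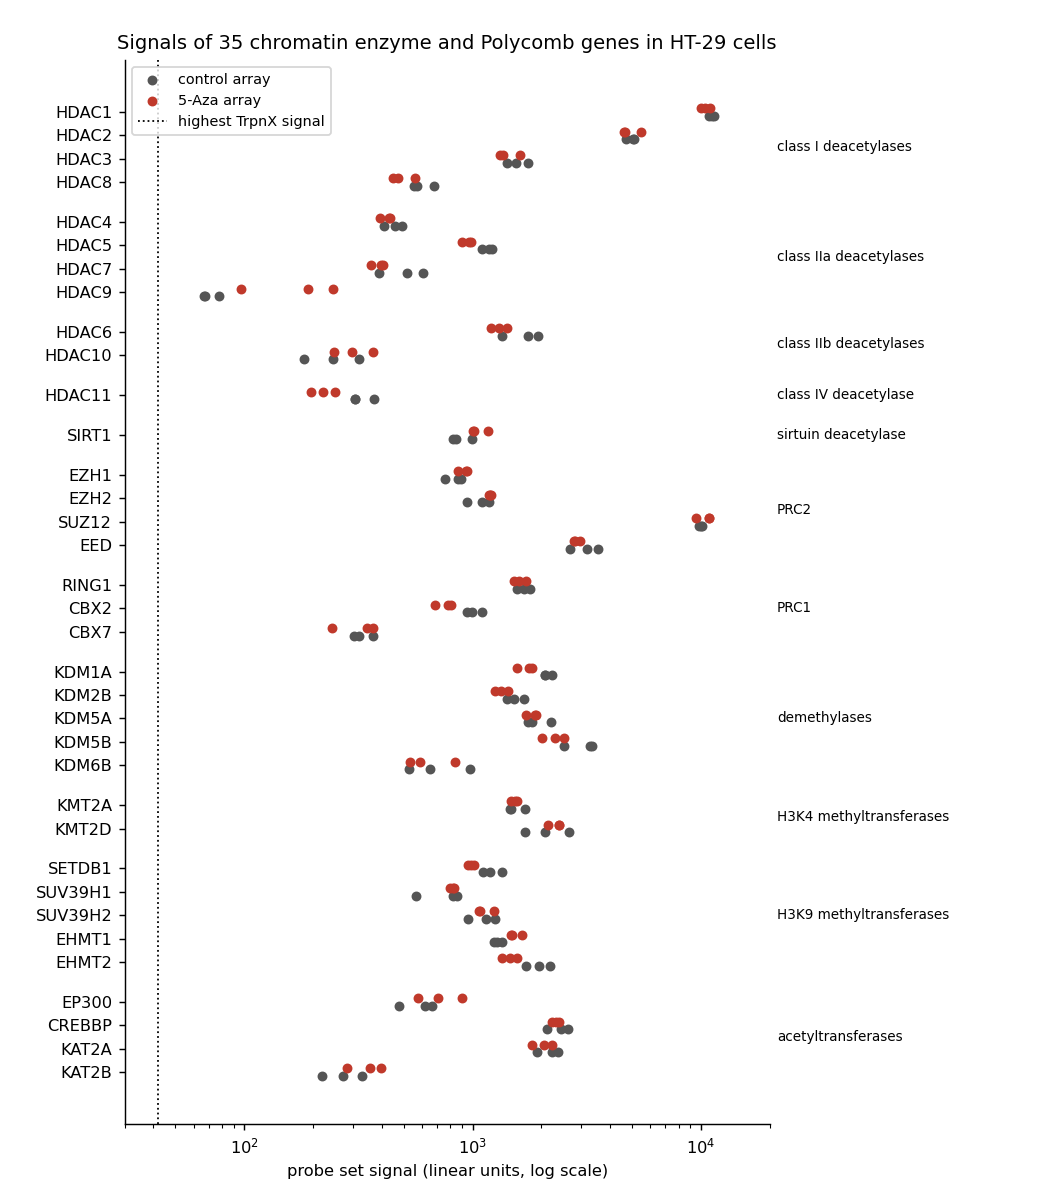
Signal of the 35 measured genes on each of the 3 control arrays (grey) and 3 5-Aza arrays (red), grouped by role. The horizontal axis is the probe set signal in linear units on a log scale, and the dotted line is the highest TrpnX signal of 42. Signals of different genes come from different probes and are not comparable with each other. HDAC9, with control signals from 67.0 to 77.7, lies nearest to the dotted line.

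The 3 5-Aza arrays all lay above the 3 control arrays for 3 members (8.57%) and all below for 6 members (17.1%), and the groups overlapped for the other 26. Among all genes, 9.92% lay wholly above and 6.94% wholly below (9.29% and 5.22% of all probe sets), and among genes above the TrpnX signal on every array these shares were 10.2% and 9.68%. The 3 higher genes were HDAC9, SIRT1 and EHMT1, and the 6 lower ones were HDAC5, HDAC11, CBX2, KDM1A, SETDB1 and EHMT2. An exact permutation test (two-sided) of 3 arrays against 3 cannot give a p below 0.1, and each of these 9 genes had this p. The difference was below 0 in 23 members and above 0 in 12, beside 49.9% of the genes above the TrpnX signal below 0.

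The direction of small differences depends on how the arrays are scaled. Over all probe sets the log2 fold change had a median of 0.06 with the values as deposited and of −0.12 after each array was centred on its median, a shift of −0.19. Relative to that centring 29 members lay below 0 and 6 above, and after quantile normalization 21 lay below and 14 above. With the average over all probe sets of a gene the majority turned, with 16 below 0, 19 above and a median of 0.01. This average of log2 values gives each probe set the same weight, including those near or under the TrpnX signal. The ACTB signal ratio of 3′ to 5′ probe sets, a sign of RNA length, was 0.64 to 0.80 (log2) on the 5-Aza arrays and 0.46 to 0.60 on the control arrays. The same ratio for GAPDH was 0.137 to 0.231 and 0.105 to 0.163, with overlapping groups. The part of these ratios in the results was not tested. The hybridization controls, which are added in fixed amounts, averaged 5826 on control array 3 and 9872 to 12355 on the others.

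**Figure D2:**
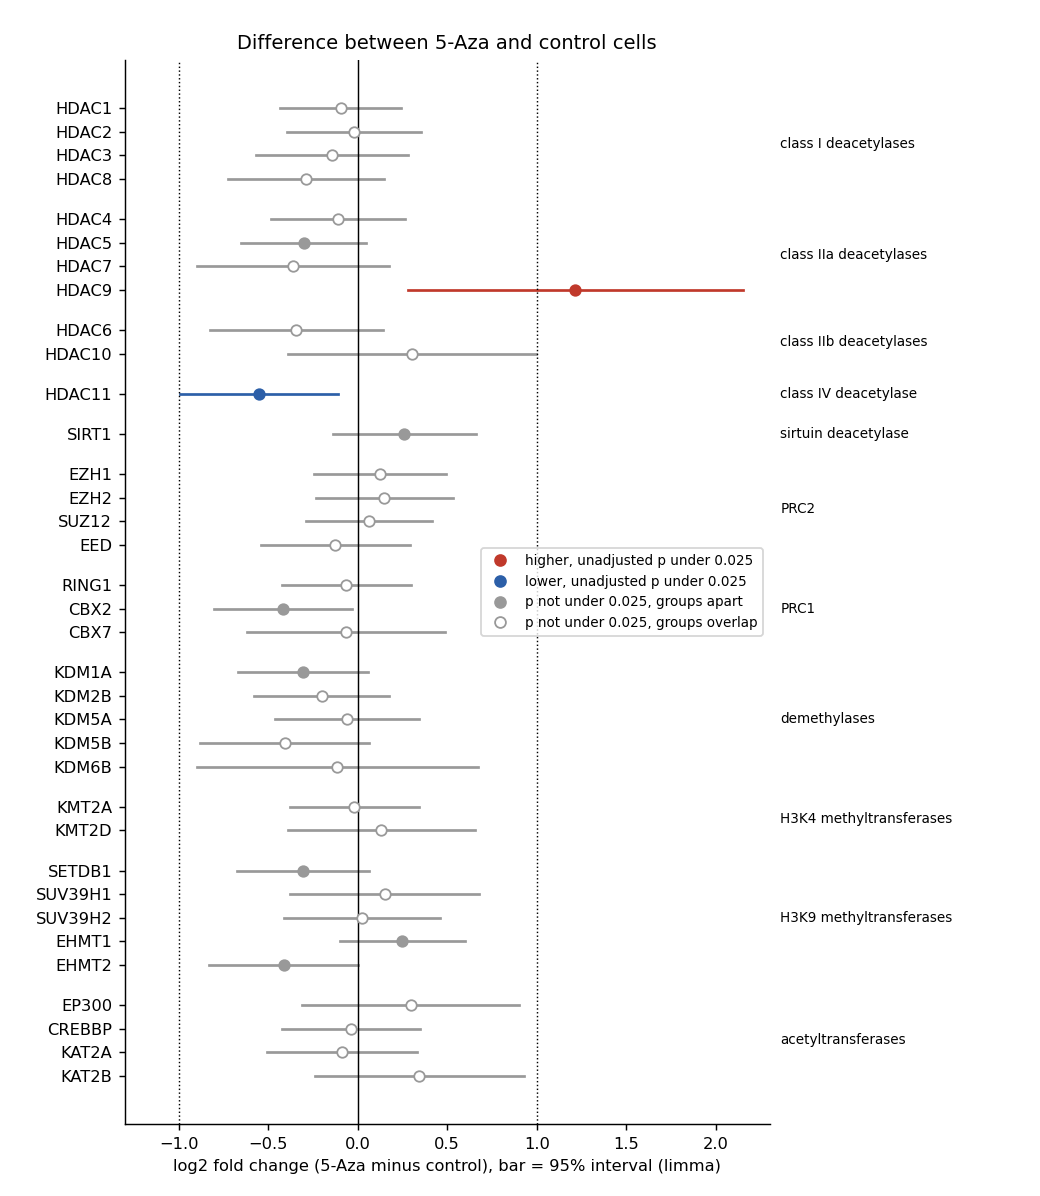
Difference between 5-Aza and control cells for the 35 measured genes, as log2 fold change with its 95% interval from limma (3 arrays per group). The vertical dotted lines mark a 2-fold difference, filled points are genes whose groups did not overlap, and colours mark an unadjusted p under 0.025. The interval of HDAC9 (0.28 to 2.15) passes the 2-fold line, and that of HDAC11 (−0.99 to −0.11) stays within it.

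HDAC9 gave the largest difference of the list. It encodes a class IIa deacetylase, a family that binds MEF2 transcription factors and shuttles between nucleus and cytoplasm. Its signal was 244.5, 190.0 and 96.5 on the 5-Aza arrays and 67.1, 77.7 and 67.0 on the control arrays. All 3 treated arrays lay above the controls, but they were 177 ± 74.9 (SD, n = 3) and spread much more than the controls at 70.6 ± 6.15. The log2 fold change was 1.22 ± 0.37 (SE), or 2.32-fold, with an interval of 0.28 to 2.15 (limma, unadjusted p = 0.0198, adjusted p = 0.604; exact permutation p = 0.1). The call held without 5-Aza array 3, where the log2 fold change was 1.60, and was lost without any one of the other 5 arrays (0.93 to 1.29). It was also lost after quantile normalization (1.05) and after centring on the array median (1.03).

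The probe set that gave this value, 205659_at, is 1 of 5 for HDAC9. The other 4 had signals between 1.9 and 73.3 and overlapping groups, and the average of all 5 gave a log2 fold change of 0.08. Of these, 234393_at went the other way at −0.80, with 41.2, 73.3 and 6.7 on the 5-Aza arrays and at least 49.0 on every control. The result for HDAC9 thus rests on a single probe set.

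HDAC9 has 5 transcription starts in the RefSeq table (GRCh38.p14), which differ widely in CpG content, the dinucleotide at which DNA methylation lies. The richest and the poorest are shown because CpG sites are where the drug acts on DNA methylation, and which of these starts the probe set measures is not known here. Each sequence runs 5′ to 3′ from 250 bases before to 50 bases after a start, with every CG in capitals (CG reads the same on both strands). The first, at chr7:18086575-18086874 on the plus strand, holds 41 CG, and 6.69% of 35116 RefSeq promoters hold at least as many. The last, at chr7:18509020-18509319 on the plus strand, holds 0, and the 3 between them hold 5 each.
HDAC9 first start: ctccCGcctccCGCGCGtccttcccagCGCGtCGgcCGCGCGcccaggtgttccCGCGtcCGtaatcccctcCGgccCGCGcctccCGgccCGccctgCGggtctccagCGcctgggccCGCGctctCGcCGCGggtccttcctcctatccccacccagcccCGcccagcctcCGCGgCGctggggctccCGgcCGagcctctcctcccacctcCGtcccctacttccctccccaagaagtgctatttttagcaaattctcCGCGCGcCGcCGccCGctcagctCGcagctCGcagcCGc
HDAC9 last start: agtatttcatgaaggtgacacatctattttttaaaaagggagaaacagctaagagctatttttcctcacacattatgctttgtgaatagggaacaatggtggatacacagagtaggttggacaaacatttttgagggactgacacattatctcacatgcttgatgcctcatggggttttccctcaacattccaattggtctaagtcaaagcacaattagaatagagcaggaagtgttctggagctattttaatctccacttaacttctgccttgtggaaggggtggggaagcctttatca

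HDAC11, the sole class IV deacetylase, was the only member called lower. Its signal was 250.6, 220.5 and 196.2 on the 5-Aza arrays and 304.5, 368.8 and 304.8 on the control arrays, so that the groups did not overlap. The means were 222 ± 27.3 and 326 ± 37.0 (SD, n = 3 each), a log2 fold change of −0.55 ± 0.17 (SE), or 1.46-fold lower, with an interval of −0.99 to −0.11 (limma, unadjusted p = 0.0227, adjusted p = 0.609; exact permutation p = 0.1). The call was lost on leaving out any single array, with log2 fold changes from −0.64 to −0.46. Its second probe set, 219847_at, gave 149.0, 228.3 and 264.9 on the 5-Aza arrays and 30.2, 172.9 and 204.0 on the controls, a difference of 1.01 in the opposite direction (adjusted p = 0.832, limma), and the average of both probe sets was 0.23. The promoter of HDAC11 at chr3:13480056-13480355 (plus strand, GRCh38.p14) holds 30 CG, and 22.4% of promoters hold at least as many.
HDAC11: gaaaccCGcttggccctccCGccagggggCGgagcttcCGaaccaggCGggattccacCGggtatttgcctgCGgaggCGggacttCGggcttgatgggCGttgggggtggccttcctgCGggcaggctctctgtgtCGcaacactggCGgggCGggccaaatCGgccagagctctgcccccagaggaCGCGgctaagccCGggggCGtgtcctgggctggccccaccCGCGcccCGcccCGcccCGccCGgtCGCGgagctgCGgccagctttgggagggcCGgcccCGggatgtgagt

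The other class IIa deacetylases did not share the direction of HDAC9. HDAC5 had 898.3, 984.7 and 961.0 on the 5-Aza arrays and 1101.6, 1219.9 and 1185.8 on the controls, a log2 difference of −0.30 ± 0.14 (SE; adjusted p = 0.729, limma). These groups did not overlap, and the gene passed the unadjusted threshold after centring (−0.49) and in a fit with an intensity trend and robust variances. A second probe set, 229408_at, was wholly on the other side, with 214.4, 222.8 and 289.3 against 168.3, 112.9 and 193.1 (0.63, adjusted p = 0.709, limma). HDAC4 and HDAC7, with −0.11 and −0.36, had overlapping groups on the chosen probe sets. Probe set 228813_at of HDAC4 had 193.4, 150.1 and 178.7 against 214.2, 209.4 and 287.1, with no overlap (−0.435, adjusted p = 0.734, limma). Its probe set 1554322_a_at, near the TrpnX signal, went the other way at 0.80 with overlapping groups. The 2 probe sets of HDAC5 therefore do not settle a direction for this gene, and the class holds 1 positive and 3 negative values.

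The class I deacetylases, which form the catalytic core of the SIN3, NuRD, CoREST and NCoR corepressor complexes, were all within 0.3 of 0 on the log2 scale. HDAC1 gave 9990.8, 10435.7 and 10990.3 on the 5-Aza arrays and 10899.5, 11473.5 and 11156.8 on the controls (−0.09, interval −0.43 to 0.24). HDAC2 gave 4587.3, 5459.7 and 4660.7 against 5089.1, 4721.3 and 5067.6 (−0.02, interval −0.40 to 0.35). HDAC3 was at −0.14 and HDAC8, the class I enzyme outside these complexes, at −0.29. The groups overlapped for all 4 genes. Their values were all below 0 as deposited, but HDAC2 moved to 0.00 after quantile normalization.

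HDAC6, the cytoplasmic tubulin deacetylase, and HDAC10, which deacetylates polyamines, form class IIb, and gave −0.34 and 0.30 with overlapping groups. A second probe set of HDAC10, 232870_at, went the other way at −1.496 (adjusted p = 0.719, limma), with 21.1, 98.5 and 33.2 on the 5-Aza arrays and 72.5, 134.5 and 168.6 on the controls. SIRT1, the NAD-dependent deacetylase of the nucleus, had 1000.9, 1167.3 and 1015.0 on the 5-Aza arrays and 990.2, 823.9 and 844.1 on the controls. Its groups were apart by a narrow margin, and the log2 fold change was 0.26 ± 0.16 (SE; adjusted p = 0.793, limma).

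The core of PRC2 showed no member past the threshold. EZH2, the methyltransferase of the complex that is prominent in dividing cells, gave 1177.8, 1191.4 and 1200.3 on the 5-Aza arrays and 950.5, 1186.1 and 1095.2 on the controls. The 5-Aza arrays lay close together while the controls spread and overlapped them, with a log2 fold change of 0.15 (interval −0.23 to 0.53). SUZ12, the scaffold subunit, gave 10874.3, 10837.3 and 9518.7 against 9974.4, 10072.5 and 9787.5 (0.06, interval −0.29 to 0.41). EZH1, the other catalytic subunit, was at 0.13 and EED, the subunit that reads the H3K27 mark, at −0.12. The 3 values above 0 (EZH1, EZH2 and SUZ12) all moved below 0 after centring on the array median, to between −0.12 and −0.04.

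Of PRC1, CBX2, CBX7 and RING1 were measured. CBX2, a chromodomain subunit that compacts chromatin, had 806.3, 686.2 and 782.6 on the 5-Aza arrays and 945.0, 991.4 and 1101.4 on the controls. The groups did not overlap and differed by −0.42 ± 0.15 (log2, SE), with an interval of −0.80 to −0.03 (limma, unadjusted p = 0.0384, adjusted p = 0.666; exact permutation p = 0.1). It passed the unadjusted threshold of 0.025 in a fit with an intensity trend and robust variances, with either filter on low signals, with _x_at probe sets as equals, and after centring on the array median, where the log2 fold change was −0.60. With _x_at as equals its probe set and its log2 fold change (−0.42) stayed the same, but that fit held 1 value per gene in place of all probe sets. Centring raised the lower calls over all probe sets from 575 to 1451. CBX2 did not pass after quantile normalization (−0.42), with 16 in place of 1, with the replicate block or on leaving out any 1 array. Averaged over all its probe sets CBX2 lay at 0.14. Its 2 other probe sets above the TrpnX signal, 215989_at and 240084_at, went the other way at 1.00 and 0.33, with overlapping groups. On their chosen probe sets CBX7 and RING1, an E3 ubiquitin ligase of histone H2A, were both at −0.06. A second probe set of RING1, 208371_s_at, had 911.0, 833.2 and 847.5 on the 5-Aza arrays and 1011.8, 1214.6 and 1214.3 on the controls. Its groups did not overlap (−0.40, adjusted p = 0.673, limma), and the average of both probe sets was −0.23.

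**Figure D3:**
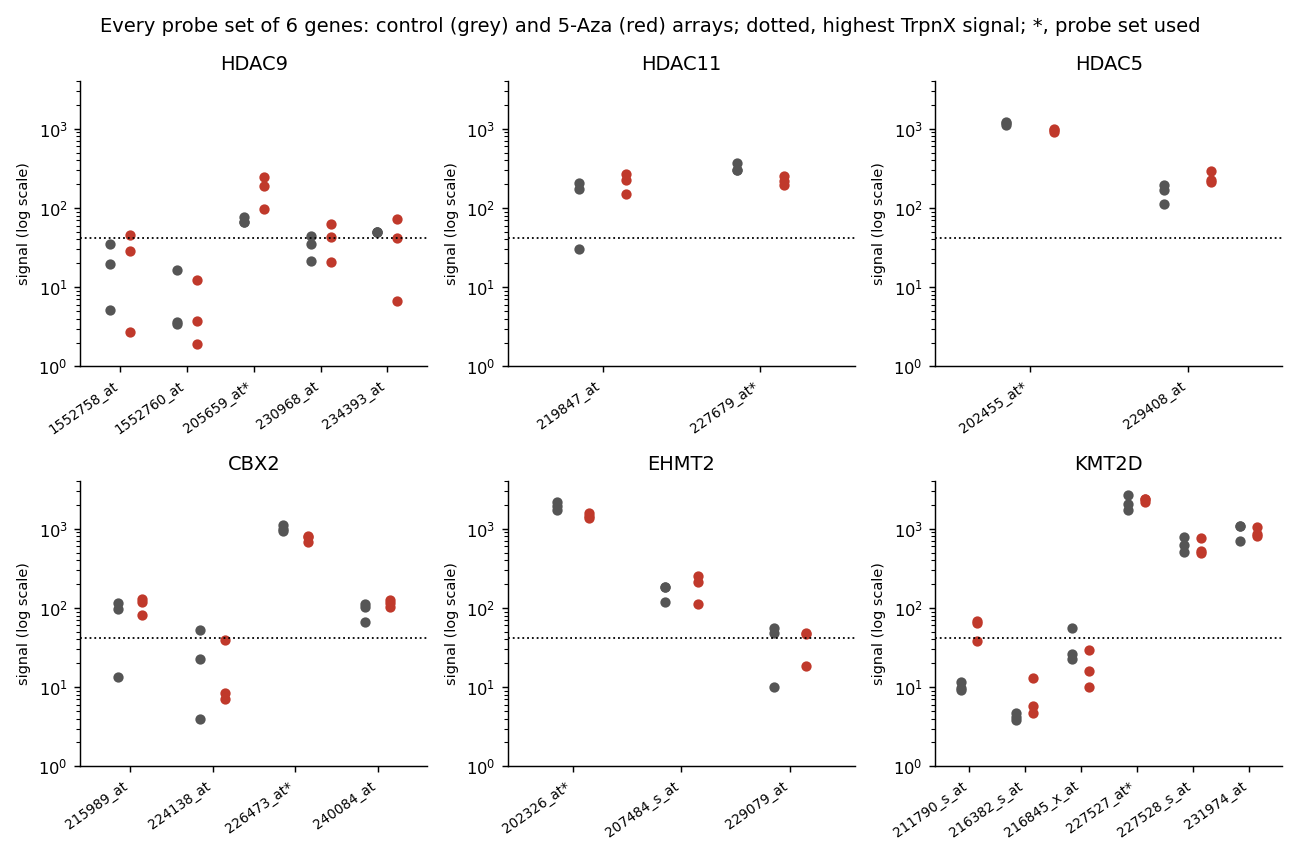
Signal (log scale) of every single-symbol probe set of HDAC9, HDAC11, HDAC5, CBX2, EHMT2 and KMT2D on the control (grey) and 5-Aza (red) arrays. The asterisk marks the probe set used for the gene and the dotted line the highest TrpnX signal of 42. For HDAC11 and HDAC5 the 2 probe sets above background go in opposite directions.

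All 5 histone demethylases had values below 0 on the chosen probe set, from −0.41 to −0.06, and stayed below 0 after quantile normalization and centring. None passed the threshold with the values as deposited, but KDM1A and KDM5B did so after centring (−0.49 and −0.59) and in a fit with an intensity trend and robust variances. KDM1A, which demethylates H3K4 in the CoREST complex, gave 1769.4, 1823.7 and 1568.3 on the 5-Aza arrays and 2069.6, 2068.8 and 2230.7 on the controls. Every treated array lay below every control, with a log2 difference of −0.31 ± 0.14 (SE; adjusted p = 0.736, limma). KDM5B, which removes trimethylation from H3K4, gave 2288.2, 2523.1 and 2024.3 against 3256.3, 2515.2 and 3331.3, and its groups touched at control array 2 (−0.41, adjusted p = 0.731, limma). KDM5A, KDM2B and the H3K27 demethylase KDM6B were at −0.06, −0.20 and −0.11 with overlapping groups, and leaving out 1 array moved KDM5A and KDM6B across 0. Other probe sets above the TrpnX signal differed in direction. They gave 0.38, 0.23, 0.08 and −0.59 for KDM5A, 0.33, −0.15 and −0.35 for KDM5B, and 0.35, −0.12, −0.17 and −0.27 for KDM6B. KDM1A is shown as a lower member with a CpG-rich start, at chr1:23019218-23019517 (plus strand, GRCh38.p14) with 36 CG, which 12.7% of promoters reach.
KDM1A: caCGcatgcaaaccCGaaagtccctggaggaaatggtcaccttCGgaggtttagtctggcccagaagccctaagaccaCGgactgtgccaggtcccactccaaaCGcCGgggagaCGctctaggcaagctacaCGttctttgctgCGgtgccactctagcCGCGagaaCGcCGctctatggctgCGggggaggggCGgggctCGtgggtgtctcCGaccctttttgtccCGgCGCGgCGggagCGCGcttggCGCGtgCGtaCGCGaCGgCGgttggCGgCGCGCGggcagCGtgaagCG

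The H3K9 methyltransferases did not move one way. EHMT1 and EHMT2, also called GLP and G9a, work as a heterodimer that places mono- and dimethylation on H3K9, and their signals differed in opposite directions. EHMT1 had 1487.2, 1477.1 and 1645.8 on the 5-Aza arrays and 1352.6, 1238.5 and 1284.9 on the controls (0.25 ± 0.14, SE; adjusted p = 0.776, limma). EHMT2 had 1568.3, 1345.9 and 1463.2 against 1706.9, 1954.4 and 2182.0 (−0.41 ± 0.17, SE; adjusted p = 0.692, limma). Neither pair of groups overlapped and neither gene passed the threshold with the values as deposited. EHMT2 passed it after centring (−0.60), in a fit with an intensity trend and robust variances, and among probe sets above the median signal.

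The log2 signal of EHMT1 minus that of EHMT2, which does not depend on the scaling of an array, was −0.08, 0.13 and 0.17 on the 5-Aza arrays and −0.33, −0.66 and −0.76 on the controls. The means were 0.08 ± 0.13 and −0.59 ± 0.22 (SD, n = 3 each), a difference of 0.66. This pair was chosen after its values were seen, so the difference is a description and no test is given. Averaged over all its probe sets EHMT2 was at −0.02, since 207484_s_at lay at 0.19 and 229079_at at 0.18, each with overlapping groups. The means of 229079_at, 37.7 (5-Aza) and 38.4 (control), lay under the TrpnX signal. Both promoters are shown because the genes differ in direction and in CpG content. EHMT1 at chr9:137618755-137619054 (plus strand, GRCh38.p14) holds 51 CG, the most of any measured member, which 1.01% of promoters reach, and EHMT2 at chr6:31897649-31897948 (minus strand) holds 25, which 32% reach.
EHMT1: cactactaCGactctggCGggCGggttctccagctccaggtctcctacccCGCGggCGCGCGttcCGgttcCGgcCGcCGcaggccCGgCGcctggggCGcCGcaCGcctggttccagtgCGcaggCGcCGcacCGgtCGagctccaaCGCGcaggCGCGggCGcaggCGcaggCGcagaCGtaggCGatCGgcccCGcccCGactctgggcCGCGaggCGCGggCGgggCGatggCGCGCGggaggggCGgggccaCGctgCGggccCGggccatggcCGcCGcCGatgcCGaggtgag
EHMT2: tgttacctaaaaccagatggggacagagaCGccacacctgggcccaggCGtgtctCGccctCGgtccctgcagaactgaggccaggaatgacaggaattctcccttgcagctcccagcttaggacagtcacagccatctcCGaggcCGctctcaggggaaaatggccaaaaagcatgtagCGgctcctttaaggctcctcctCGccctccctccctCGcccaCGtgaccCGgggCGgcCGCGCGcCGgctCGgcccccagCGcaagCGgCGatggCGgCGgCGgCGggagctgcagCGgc

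SETDB1, which places H3K9 trimethylation at silenced retroelements, gave 953.9, 980.2 and 1011.9 on the 5-Aza arrays and 1197.0, 1109.3 and 1342.5 on the controls, with no overlap (−0.30 ± 0.15, SE; adjusted p = 0.743, limma). It passed the unadjusted threshold only after centring (−0.49). SUV39H1 and SUV39H2, the enzymes of pericentric heterochromatin, were at 0.15 and 0.03 with overlapping groups, and both moved below 0 after centring on the array median. Among the H3K4 methyltransferases, KMT2A was at −0.02 and KMT2D at 0.13 on the chosen probe sets, and both overlapped. KMT2A has 11 probe sets, of which 212079_s_at lay wholly above the controls. It had 395.5, 381.9 and 483.7 against 304.3, 303.6 and 354.5 (0.385, adjusted p = 0.723, limma). Others above the TrpnX signal went both ways with overlapping groups, such as 226981_at at 0.13 and 212080_at at −0.14.

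The acetyltransferases were also without a call. EP300 and KAT2B were at 0.30 and 0.35, and CREBBP and KAT2A at −0.04 and −0.09, with overlapping groups in all 4. CREBBP changed sign on leaving out 1 array (−0.12 to 0.03).

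When all probe sets of a gene were averaged, the sign of 11 members turned, compared with 6 after centring and 2 after quantile normalization. In that average a probe set near or under the TrpnX signal weighs as much as a strong one. The 35 genes had 98 probe sets, of which 63 were not chosen, 52 of these lay above the TrpnX signal in at least 1 group, and 28 of the 52 had the opposite sign of the chosen one. Of the 63, 3 passed an unadjusted p under 0.025, all higher and all in the same direction as the chosen probe set, beside 2.97% of all probe sets called higher and 1.05% lower. The probe set 213579_s_at of EP300 had 371.0, 364.1 and 377.4 on the 5-Aza arrays and 296.6, 252.3 and 263.3 on the controls (0.46 ± 0.14, SE; limma, unadjusted p = 0.0216, adjusted p = 0.605; exact permutation p = 0.1). The probe set 239197_s_at of EZH1 had 259.5, 256.1 and 278.0 against 168.4, 203.5 and 182.7 (0.52 ± 0.15, SE; limma, unadjusted p = 0.0156, adjusted p = 0.579; exact permutation p = 0.1), while 203249_at of the same gene lay at −0.50 with overlapping groups.

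The largest value of any probe set of these genes belonged to KMT2D, which encodes an H3K4 methyltransferase of enhancers. Its probe set 211790_s_at had 64.2, 38.6 and 68.8 on the 5-Aza arrays and 9.2, 11.5 and 9.8 on the controls, a log2 fold change of 2.34 ± 0.27 (SE; limma, unadjusted p = 0.000221, adjusted p = 0.192; exact permutation p = 0.1). All 3 control signals and 1 of the 3 5-Aza signals lay under the TrpnX signal of 42, so the size of this difference is not well measured. The chosen probe set of KMT2D, 227527_at, gave 2398.4, 2144.1 and 2383.6 against 2071.5, 1703.4 and 2632.2, and 227528_s_at and 231974_at were at −0.10 and −0.05. The average over its probe sets without _x_at passed the unadjusted threshold at 0.59 (limma), but it includes 211790_s_at and 216382_s_at (0.65), the latter with all 6 signals between 3.8 and 13.1, under the TrpnX signal.

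**Figure D4:**
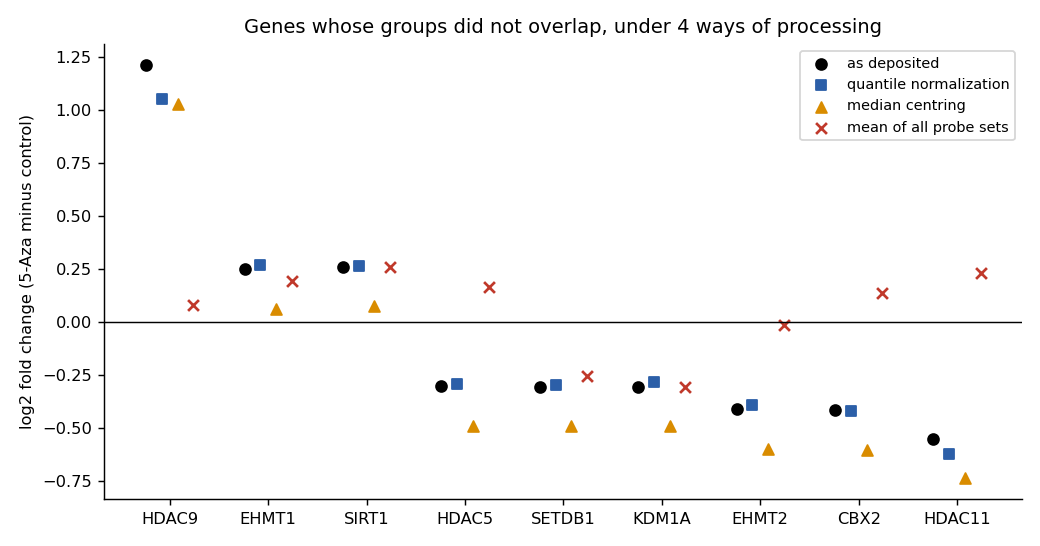
Log2 fold change (5-Aza minus control) of the 9 genes whose groups did not overlap, with the values as deposited, after quantile normalization, after centring each array on its median, and with the average over all probe sets of the gene. HDAC5, CBX2 and HDAC11 lie below 0 in the first 3 and above 0 with this average, and HDAC9 drops from 1.22 to 0.08.

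Other genes of the same complexes and enzyme families were counted from a list of 109, of which 103 were measured. At an unadjusted p under 0.025, 0 were called higher and 0 lower by limma, beside 3.01% and 0.915% of all genes. With 0.05 as the threshold, 2 were higher and 0 lower, beside 5.33% and 1.89% of all genes. These were PHF1, a PRC2 accessory subunit that reads H3K36 methylation, with a log2 fold change of 0.49 (adjusted p = 0.66, limma), and RBBP5, a core subunit of the KMT2 complexes, with 0.39 (adjusted p = 0.69), both named after their values were seen. This count depended on the processing, with 9 partners past 0.025 in a fit with an intensity trend and robust variances, 4 after centring and 4 among probe sets above the median signal. Over all probe sets 2747, 2377 and 1622 passed in these settings, beside 2196 of 54613 as deposited. The filter on the median signal left fewer probe sets to test. The 5-Aza arrays lay wholly above the controls for 8 partners and wholly below for 8, which is 7.77% each, beside 9.92% and 6.94% of all genes and 10.2% and 9.68% of those above the TrpnX signal. The median was 0.00, with 50 values above 0 and 51 below.

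The counts by role are small and are given only to account for the list. Among all genes 9.92% lay wholly above the controls and 6.94% wholly below, and among those above the TrpnX signal 10.2% and 9.68%. The 14 measured other PRC1 subunits held 3 genes wholly above the controls and 2 wholly below, with a median of −0.05. The 7 PRC2 accessory subunits held 2 above and 1 below, with a median of −0.02. The 13 genes of deacetylase corepressor complexes had a median of 0.03 and a range of −0.29 to 0.23. The 14 other histone demethylases had 8 values below 0 and 6 above, and 1 gene wholly below. The 12 other acetyltransferases had a median of −0.01, and the 7 arginine methyltransferases a median of −0.07 with 2 genes wholly below. The largest difference of the 103, −1.27, belonged to the mitochondrial sirtuin SIRT4, also named after its values were seen, whose means in both groups lay under the TrpnX signal.

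Proliferation genes were counted because several of these enzymes, EZH2 among them, follow the cell cycle. Of 24 measured, 19 had values above 0 and 5 below, with a median of 0.11, and 0 passed an unadjusted p under 0.025 or under 0.05 (limma). The cell type was checked against markers of colon epithelium, of which EPCAM and KRT18 had mean signals of 23599 to 24883 and 36086 to 36197, while CDX1 (11.3 and 17.3) and CDH17 (27.5 and 38.5) lay under the TrpnX signal. The defining markers PTPRC of leukocytes and CDH5 of endothelium were at most 19.9 and 9.80 on average. The means lay under the TrpnX signal in both groups for 3 of 6 measured leukocyte, 1 of 7 fibroblast and 2 of 4 endothelial markers. Other markers were above it, with means of 340 and 273 (5-Aza and control) for COL1A1, 215 and 127 for VIM, 202 and 171 for FAP, 178 and 132 for PECAM1, 58.3 and 28.0 for CD3E, and 30178 and 25417 for LYZ. The summed signal was 867 to 1012 on the 5-Aza arrays and 646 to 756 on the controls for the fibroblast list, 246 to 309 and 163.0 to 223 for the endothelial list, and 136 to 209.7 and 109.8 to 148 for the leukocyte list without LYZ. The fibroblast and endothelial sums did not overlap between the groups. VWF, at 55.2 and 13.1, was the only marker past 0.025 (1.95, adjusted p = 0.579, limma), and the part of these values in the results was not tested.

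CpG content was counted in the RefSeq promoters (GRCh38.p14, 250 bases before to 50 after each start), of which 33 measured members have at least 1 and 9 have several. For genes with several starts the richest was taken. The members held 9 (HDAC8) to 51 (EHMT1) CG with a median of 36, compared with a median of 14 and quartiles of 4 and 28 over all 35116 promoters. Over 27305 genes, each taken at its richest start as the members were, the median was 16 and the upper quartile 30, and 31 members lay above the former and 21 above the latter. In all, 96.0% of all promoters hold at least 1 CG. Of the 2 called members, HDAC11 held 30, at that upper quartile, and HDAC9 held 41 at its richest start, while its other 4 starts held 5 or fewer, below the median of all promoters. Methylation was not measured in these files, so no value says which of these CG were methylated before the treatment.

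**Figure D5:**
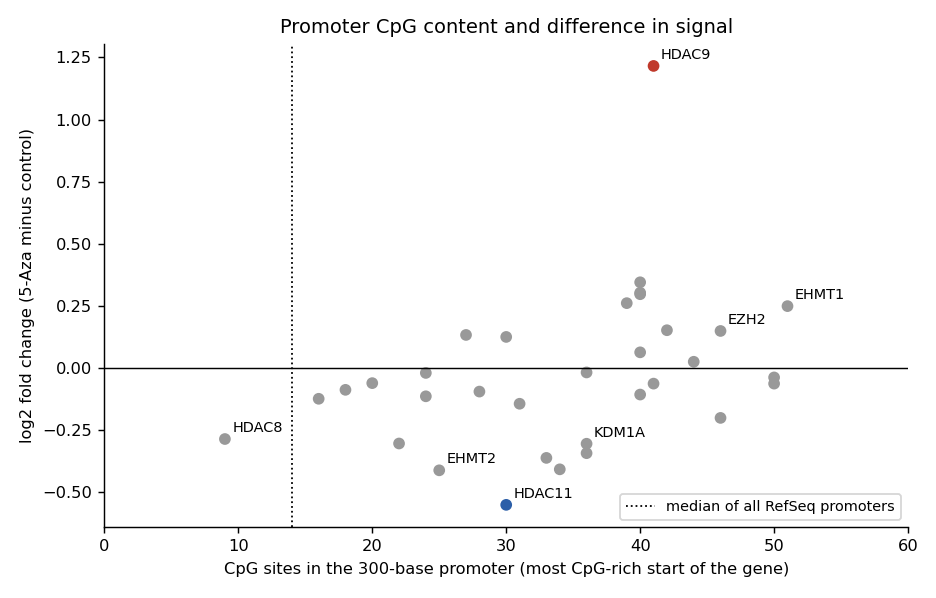
Number of CG in the most CpG-rich 300-base promoter of each of 33 measured members (horizontal axis) against its log2 fold change, 5-Aza minus control (vertical axis). The dotted line is the median of 14 over all RefSeq promoters. HDAC9 (41 CG, 1.22) and HDAC11 (30 CG, −0.55) are coloured, and members without a call span 9 to 51 CG.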

How the data were processed

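Linear intensity values, 1 per probe set and array, were deposited by the authors, whose notes name the affy package (version, summary method and background correction not given in the sources used here). On every array the mean without the lowest and highest 2% was 499.9, so the arrays share a scale. All 6 arrays were used, 3 per group, as the labels give them. Of 54675 probe sets, 62 Affymetrix controls were left out. Values were taken as log2(intensity + 1) of the deposited signals, with no other normalization, and compared with limma 3.58.1 in R 4.3.3 (group as the only term, empirical Bayes). P-values were adjusted by Benjamini-Hochberg over 54613 probe sets, and unadjusted p under 0.025 is given beside them. This is the p threshold of the study for higher genes in this cell line, without its ranking by fold change. The SAM test of the study was not used, since its null comes from other splits of the 6 arrays. The fit was tested on simulated data. The number of arrays limits the precision.

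Symbols came from the platform annotation, with 41091 tested probe sets having 1 symbol, 1801 several and 11721 none. A gene took the single-symbol probe set with the highest mean, _x_at only where no other existed. The members, the other lists and the tests were chosen with earlier results of these data known. Array values are given in full for members past 0.025, members whose groups did not overlap, the 3 highest signals and the 3 largest differences, and in addition for EZH2 and KDM5B, which were added afterwards. Partner and proliferation genes were to be named past 0.025. Other probe sets of a member were named past 0.025, or as examples above the TrpnX signal with the opposite sign or with groups apart. Those with groups apart and the same sign were added afterwards. Deviations of arrays with the same number in both groups correlated at −0.041, −0.039 and 0.075, so the numbers were not taken to pair arrays. Promoters were those of RefSeq (GRCh38.p14), and HDAC5 and CBX2 are not in that table. Alternatives were an intensity trend with robust variances, quantile normalization, centring on the array median, filters on low signals, 16 in place of 1, a replicate block, each array left out, and other probe set choices. The fits with other probe set choices held 1 value per gene in place of all probe sets. Their p-values can therefore differ for a gene whose probe set stayed the same.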

Additional observations from a re-analysis of the deposited data

How the results depend on the processing

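No member passed an adjusted p under 0.05 in any setting. The count of members called higher (1) fell to 0 after quantile normalization, after centring and with the replicate block, where HDAC9 lay at 1.05, 1.03 and 1.22, and was 0 to 1 on leaving out 1 array. The count called lower (1) was 6 with an intensity trend and robust variances (fitted together), 7 after centring, 3 among probe sets above the median signal, 2 among those above TrpnX, 2 with _x_at probe sets as equals, 0 with the mean of all probe sets, 0 with the replicate block and 0 on leaving out any 1 array. The labels do not say whether the replicate numbers pair the arrays, and under the block 1914 probe sets passed 0.025 in place of 2196. Members without overlap (9, of which 3 higher and 6 lower) were 20 after centring (1 and 19), 2 lower with the mean of all probe sets, and 12 to 17 on leaving out 1 array (3 to 6 higher, 7 to 12 lower). The share of all genes without overlap was not counted in these settings, so the counts are not a result about the members. Centring moved the median of all probe sets by −0.19, and 2 arrays against 3 lie apart more easily than 3 against 3. The median over the 35 members (−0.06) was −0.25 after centring, 0.01 with the mean of all probe sets, and −0.11 to −0.02 on leaving out 1 array. Partners called (0) were 9 with trend and robust variances, 4 after centring, 4 above the median signal, 2 above TrpnX, 2 with the mean of all probe sets, 1 with _x_at as equals, and 0 to 2 on leaving out 1 array. Over all probe sets 2747 passed with trend and robust variances, 2377 after centring, 1622 above the median signal and 1945 above TrpnX. Of all probe sets, 1621 were higher (926 after centring) and 575 lower (909 with trend and robust variances, 910 after quantile normalization, 1451 after centring), so 73.8%, 39.0% (centring) and 54.5% (quantile) of the calls were higher. At an adjusted p under 0.05, 23 passed with trend and robust variances, 9 above the median signal and 11 above TrpnX.

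The sign turned after quantile normalization for HDAC2 (0.002) and KMT2A (0.001). After centring it turned for EZH1 (−0.061), EZH2 (−0.037), SUZ12 (−0.123), KMT2D (−0.053), SUV39H1 (−0.035) and SUV39H2 (−0.162). With the mean of all probe sets it turned for HDAC2 (0.049), HDAC4 (0.086), HDAC5 (0.166), HDAC7 (0.025), HDAC10 (−0.597), HDAC11 (0.231), EZH1 (−0.012), EED (0.012), CBX2 (0.139), KDM5A (0.008) and KMT2A (0.059). On leaving out 1 array it turned for CBX7 (−0.179 to 0.123), CREBBP (−0.124 to 0.029), HDAC2 (−0.10 to 0.025), KDM5A (−0.122 to 0.039), KDM6B (−0.313 to 0.133), KMT2A (−0.057 to 0.052), KMT2D (−0.018 to 0.296), SUV39H1 (−0.039 to 0.263) and SUV39H2 (−0.086 to 0.112). The cause was not tested. A constant of 16 changed no sign or call of a member. Signals near the TrpnX level, as for the other probe sets of HDAC9, limit what can be measured.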
